A study of Mus musculus with 10 samples.

Results

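Of the 15900 genes listed in the CAGE data of the mouse hippocampus, 10 encode subunits of voltage-gated calcium channels and were selected by their gene symbols. They are the pore-forming genes *Cacna1a*, *Cacna1b*, *Cacna1c*, *Cacna1d*, *Cacna1e*, *Cacna1g*, *Cacna1h* and *Cacna1i*, and the α2δ genes *Cacna2d1* and *Cacna2d2*. CAGE (cap analysis of gene expression) counts tags at the capped 5′ ends of transcripts, and levels are given in CPM, tag counts scaled so that the listed genes of each library have the same total. The number of tags does not grow with transcript length, so levels can be set side by side between genes. How tags were assigned to genes is not given, which limits this. The mice were male, of the ICR strain and 9 to 10 weeks old, and each of 5 groups held 2 of them. The pre-SE mice had no pilocarpine (PILO), and the labels call them untreated. The study's methods state that control mice were given saline in place of PILO, and its results call pre-SE mice both control and naive. All other mice received methyl scopolamine and then PILO, went through status epilepticus (SE) defined by generalized convulsions, and had diazepam to end it. Hippocampi were taken 6 h or 2 days later. The SE 6 h and SE 2 days groups had no further drug, while the SE + LEV 6 h and SE + LEV 2 days groups had levetiracetam (LEV), an antiepileptic drug, by mouth after diazepam, 1 time before 6 h and 5 times before 2 days. Diazepam was thus shared by every SE group and was not given as a separate control.

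Voltage-gated calcium channels open when the membrane is depolarized and let calcium into the cell. The pore-forming α1 subunit sets the type of current: P/Q-type and N-type channels trigger transmitter release at nerve terminals, L-type channels couple activity to gene expression, R-type channels act in dendrites and terminals, and T-type channels open near the resting potential and promote burst firing. The α2δ subunits help to bring the channels to the cell surface and are the binding sites of gabapentin and pregabalin. In the hippocampus these channels set the excitability of pyramidal neurons and granule cells, and T-type *Cacna1h* has been studied as a gene that responds to SE.

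The main observation was that 0 of the 10 channel genes passed the test in any of 8 comparisons (limma on log2(CPM + 0.1), Benjamini-Hochberg adjustment over 15851 genes, threshold 0.05). Of all genes, 0% to 5.66% were called, depending on the comparison, so a count of 0 in 10 does not set the channel genes apart. Among the 10 the smallest adjusted p was 0.094, for *Cacna1a* in SE 2 days against SE 6 h mice. The mean levels of the P/Q-type gene *Cacna1a* and the R-type gene *Cacna1e* were 0.703 and 0.574 times the pre-SE means at 2 days. Among genes that act on the channels, the inhibitors *Gem* and *Rrad* rose after SE at both times. The number of members at an unadjusted p under 0.05 was 1 at SE 6 h against pre-SE (*Cacna1c*, near 0 in level), where 17.7% of all genes had one, 2 at SE 2 days against pre-SE (19.8% of all genes), and 4 at SE 2 days against SE 6 h (20.1%), again with *Cacna1c* among them.

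Depth, estimated from the spacing of the values, ran from 10540000 to 51710000 tags per library, so that 3 tags were worth 0.058 to 0.285 CPM. The summed level of 4 choroid plexus markers, of which 2 were listed, ran from 8.0 to 3959 CPM. It was above 800 CPM in 1 mouse each of pre-SE, SE 6 h, SE + LEV 6 h and SE + LEV 2 days. Hippocampal identity was checked with markers of pyramidal cells (6 of 6 listed, sum 379 to 649 CPM) and granule cells (3 of 4 listed, sum 199 to 439 CPM), none of which was at 0 in all libraries. With the level of the choroid plexus gene *Ttr* as a covariate, 0 members were called in any comparison. The tissue was whole hippocampus, so fewer cells of a type and less RNA per cell cannot be told apart.

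In pre-SE mice *Cacna1e* had the highest mean level, 117 CPM, followed by *Cacna2d1* with 102 CPM and *Cacna1a* with 99.9 CPM, and neighbours in this order overlapped. *Cacna1h* (59.8 CPM), *Cacna1b* (46.2 CPM) and *Cacna1i* (38.8 CPM) came next and also overlapped with their neighbours among themselves. *Cacna1g* stood apart at 22.1 CPM, below *Cacna1i* and above *Cacna2d2* (12.5 CPM) and *Cacna1d* (11.3 CPM), which overlapped. *Cacna1c* was listed at 0 in both mice. At SE 2 days the order differed, in that *Cacna2d1* (78.3 CPM) had the highest mean and *Cacna1b* (22.3 CPM) came below *Cacna1g* (31.5 CPM), *Cacna1i* (27.9 CPM) and *Cacna2d2* (23.4 CPM). Of these neighbours, *Cacna1g* and *Cacna1i* did not overlap, whereas *Cacna2d2* overlapped with both *Cacna1i* and *Cacna1b*.

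**Figure D1:**
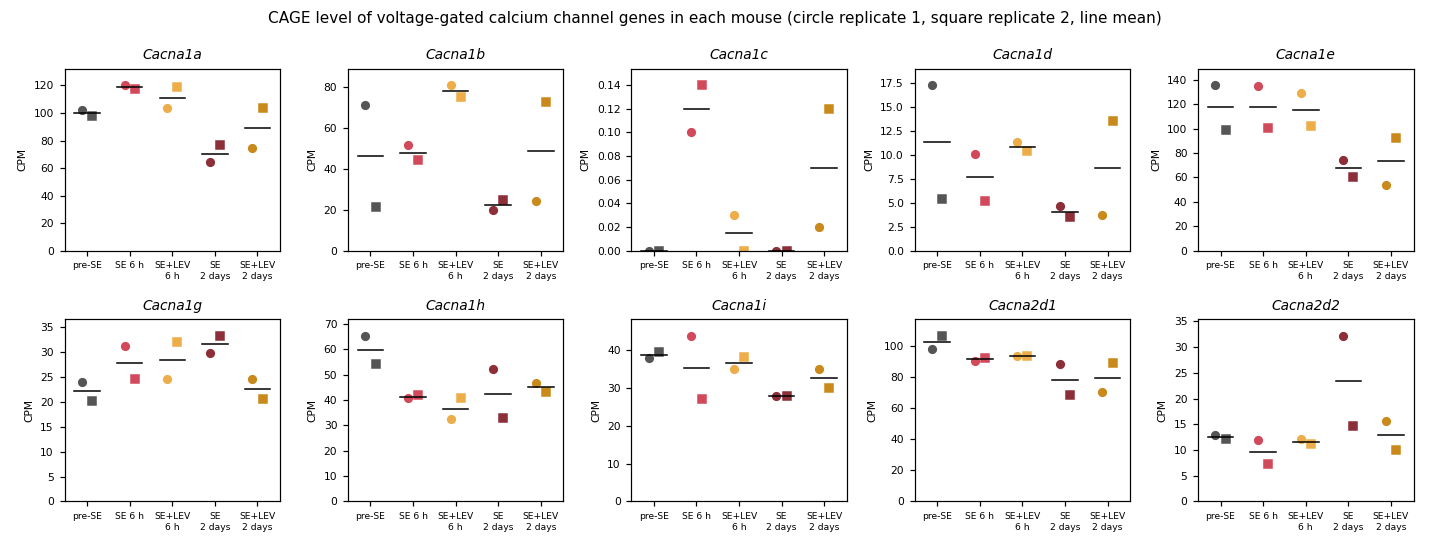
Level of each of the 10 channel genes in CPM (y axis, from 0, a scale of its own for each gene) in the 5 groups (x axis), with a circle for replicate 1, a square for replicate 2 and a line for the mean. *Cacna1a* and *Cacna1e* lie lower in both SE 2 days mice than in both pre-SE mice, while *Cacna1b* and *Cacna1d* are far apart in the 2 pre-SE mice.

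The P/Q-type pore gene *Cacna1a*, whose channel carries most of the calcium that releases transmitter at central synapses, lies on chromosome 8 (mm9, chr8:86912339-87164145, plus strand). Its levels were 102 and 97.9 CPM in pre-SE mice, 120.2 and 117 CPM at SE 6 h, and 64.1 and 76.4 CPM at SE 2 days. Both SE 6 h mice were above and both SE 2 days mice below the pre-SE pair. Relative to pre-SE the logFC was 0.25 at 6 h (SE 0.22, adjusted p = 0.6) and -0.51 at 2 days (SE 0.22, 95% interval -1.01 to -0.01, adjusted p = 0.24, limma). Between the 2 times it was -0.76 (SE 0.22, 95% interval -1.26 to -0.26, adjusted p = 0.094), which did not pass the threshold. With LEV the levels were 104 and 119 CPM at 6 h and 74.4 and 103 CPM at 2 days, overlapping with the SE mice of the same time. The logFC of SE + LEV against SE was -0.10 at 6 h (95% interval -0.60 to 0.40) and 0.33 at 2 days (-0.17 to 0.82).

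*Cacna1b* encodes the N-type pore, the target of ω-conotoxin at presynaptic terminals, and lies at chr2:24459407-24618672 on the minus strand. Its levels were 70.9 and 21.4 CPM in the 2 pre-SE mice, 51.3 and 44.4 CPM at SE 6 h and 19.8 and 24.9 CPM at SE 2 days. The pre-SE mice were so far apart that they overlapped with both SE groups. In SE + LEV mice there were 80.7 and 75.1 CPM at 6 h and 24.2 and 72.7 CPM at 2 days. Both SE + LEV 6 h mice thus lay above both SE 6 h mice and both pre-SE mice, with a logFC of 0.71 against SE 6 h (SE 0.56, 95% interval -0.55 to 1.96, adjusted p = 1, limma). At 2 days the SE + LEV mice overlapped with the SE mice, and the logFC was 0.91 (SE 0.56, adjusted p = 1). SE 2 days against SE 6 h gave -1.10 (SE 0.56, adjusted p = 0.3), with no overlap. Without replicate 1 of the pre-SE mice the logFC of SE 2 days against pre-SE went from -0.81 to 0.05.

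The L-type genes had the lowest listed levels of the pore-forming genes. *Cacna1d* (chr14:30853135-31304342, minus strand), whose channel opens at more negative potentials than other L-type channels, was at 17.2 and 5.41 CPM in pre-SE mice, 10.1 and 5.14 CPM at SE 6 h and 4.62 and 3.53 CPM at SE 2 days. Both SE 2 days mice were below both pre-SE mice, although replicate 2 of pre-SE was close to them. The logFC of SE 2 days against pre-SE, -1.24 (SE 0.65, 95% interval -2.69 to 0.21, adjusted p = 0.33, limma), had the largest size of the 10 members in that comparison. The SE + LEV levels were 11.3 and 10.3 CPM at 6 h, above both SE 6 h mice, and 3.75 and 13.5 CPM at 2 days, which overlapped with the SE 2 days mice.

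*Cacna1c* (chr6:118542314-119146249, minus strand) encodes the other brain L-type pore and was at or under an estimated 3 tags in every library. It was listed at 0 in both pre-SE and both SE 2 days mice, at 0.10 and 0.14 CPM at SE 6 h, at 0.03 and 0 CPM at SE + LEV 6 h, and at 0.02 and 0.12 CPM at SE + LEV 2 days. No fold is given for values at this depth, and the counts over 10 members below include it. Its annotated start lies within *Dcp1b* on the other strand, and that of *Cacna1d* within *Dcp1a*. How tag clusters were assigned to genes, and whether strand was used, is not given in the sources used here, so the levels of both L-type genes are uncertain.

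*Cacna1b* and *Cacna1d* each had a wide gap between the mice of the same 2 groups. In pre-SE mice the gap between replicates was 1.73 on the log2 scale for *Cacna1b* and 1.65 for *Cacna1d*, larger than in 99.1% and 98.9% of the 10454 genes with a mean of at least 10 CPM, whose median gap was 0.29. *Cacna1d*, with a mean of 8.49 CPM, is not itself among these 10454 genes and is set beside genes of higher level. In SE + LEV 2 days mice the gaps were 1.58 and 1.82, larger than in 96.8% and 98.1% of these genes. Replicate 1 was the higher mouse for both genes in pre-SE and replicate 2 in SE + LEV 2 days. In both groups the higher mouse had the lower choroid plexus sum, 12 against 1689.8 CPM in pre-SE and 25.3 against 1492 CPM in SE + LEV 2 days. At SE 6 h, where the sum was 8.0 and 3959 CPM, the mouse with the lower sum was again higher for both genes, with gaps of 0.21 for *Cacna1b* and 0.96 for *Cacna1d* (larger than in 33.2% and 92.5% of these genes). At SE + LEV 6 h, where the sum was 853 and 37.5 CPM, the mouse with the higher sum was slightly higher for both, with gaps of 0.10 and 0.13. The sum at SE 2 days was 65.1 and 21.6 CPM. There the mouse with the lower sum was higher for *Cacna1b* and lower for *Cacna1d*, with gaps of 0.33 and 0.38. The part of the choroid plexus signal in the gaps was not tested. By the root mean square difference of log2 levels about their means over 10 libraries, the genes with a profile most like *Cacna1d* were *Jph3* (0.21), which encodes a junctophilin that ties the endoplasmic reticulum to the plasma membrane, and *Sos2*, *Nck2*, *Nrip1* and *Mllt6* (0.22 each), beside a spread of 0.77 for *Cacna1d* itself. For *Cacna1c* they were *Mir99b* (0.21), *U1* (0.26), and *Adamts6*, *Plxdc2* and *1700023L04Rik* (0.28 each), beside 0.50 for *Cacna1c* itself, which is a profile of few tags.

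**Figure D2:**
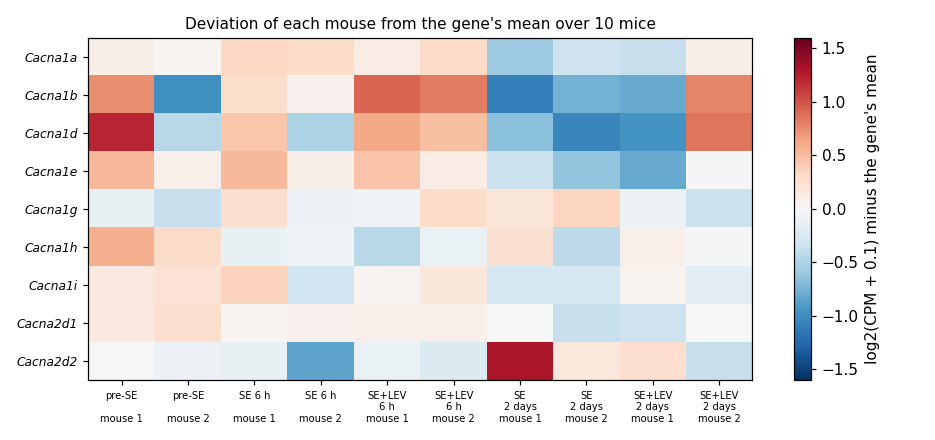
Log2(CPM + 0.1) of the channel genes above the 3-tag limit (rows) in each of the 10 mice (columns), minus the mean of the gene over all mice, with red above and blue below the mean. *Cacna1b* and *Cacna1d* have opposite colours in the 2 pre-SE mice and in the 2 SE + LEV 2 days mice, whose gaps were 1.73 and 1.65 in pre-SE and 1.58 and 1.82 in SE + LEV 2 days.

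The R-type gene *Cacna1e* (chr1:156239649-156573049, minus strand), whose channel contributes to calcium entry in dendritic spines, was at 136 and 99.2 CPM in pre-SE mice, 135 and 100.2 CPM at SE 6 h and 74.3 and 60.6 CPM at SE 2 days. The SE 6 h values covered almost the same range as the pre-SE values, and both SE 2 days mice were below all of them. The logFC against pre-SE was 0.00 at 6 h (95% interval -0.67 to 0.68) and -0.79 at 2 days (SE 0.30, 95% interval -1.47 to -0.11, adjusted p = 0.18, limma). Levels with LEV were 129 and 102 CPM at 6 h and 53.9 and 92.7 CPM at 2 days. Both SE + LEV 2 days mice were also below both pre-SE mice, with a logFC of -0.71 (SE 0.30, adjusted p = 0.41). Against SE 2 days the logFC was 0.08 (95% interval -0.60 to 0.75).

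Among the T-type genes, *Cacna1g* and *Cacna1h* had estimates of opposite sign. *Cacna1g* (chr11:94269705-94335414, minus strand), the T-type pore of thalamic relay neurons, was at 24.0 and 20.2 CPM in pre-SE mice, 31.1 and 24.5 CPM at SE 6 h and 29.9 and 33.2 CPM at SE 2 days. All 4 SE mice without LEV were above both pre-SE mice, with logFC of 0.32 at 6 h (SE 0.26, adjusted p = 0.54, limma) and 0.51 at 2 days (SE 0.26, adjusted p = 0.3). The SE + LEV mice were at 24.7 and 32.0 CPM at 6 h and 24.5 and 20.5 CPM at 2 days. At 2 days both were below both SE mice, with a logFC of -0.49 (SE 0.26, 95% interval -1.05 to 0.08, adjusted p = 1). Summed levels of 4 thalamus markers, all listed, were 52.9 and 55.5 CPM in pre-SE, 52.5 and 70.4 CPM in SE 6 h, 72.3 and 55.7 CPM in SE + LEV 6 h, 38.2 and 40.3 CPM in SE 2 days and 50.7 and 58.4 CPM in SE + LEV 2 days mice. These sums were below pre-SE at SE 2 days and not at 6 h. Of the 4 markers, 2 were below and 1, *Lef1*, was above in both SE 2 days mice. The part of these markers in the *Cacna1g* levels was not tested.

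*Cacna1h* (chr17:25511230-25570728, minus strand) was at 65.4 and 54.2 CPM in pre-SE mice, 40.8 and 41.9 CPM at SE 6 h, 32.4 and 40.9 CPM at SE + LEV 6 h, 52.2 and 33.0 CPM at SE 2 days and 46.9 and 43.3 CPM at SE + LEV 2 days. Each of the 8 mice that had SE was lower than the pre-SE pair. Against pre-SE the logFC was -0.52 at 6 h (SE 0.26, 95% interval -1.11 to 0.06, adjusted p = 0.33, limma) and -0.52 at 2 days (SE 0.26, 95% interval -1.11 to 0.07, adjusted p = 0.31). In SE + LEV mice it was -0.71 at 6 h (adjusted p = 0.42) and -0.40 at 2 days (adjusted p = 0.72). These 4 comparisons share the pre-SE mice. The third T-type gene, *Cacna1i* (chr15:80117668-80228709, plus strand), was at 37.9 and 39.7 CPM in pre-SE mice, 43.8 and 27.1 CPM at SE 6 h and 27.9 CPM in both SE 2 days mice. It overlapped with pre-SE at 6 h and lay below it at 2 days, where the logFC was -0.47 (SE 0.26, adjusted p = 0.36). Its SE + LEV levels were 35.1 and 38.3 CPM at 6 h and 35.2 and 30.1 CPM at 2 days.

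*Mtf1*, *Egr1* and *Rest* encode transcription factors known for acting on the *Cacna1h* promoter: MTF1 is a zinc-sensing activator, EGR1 an activity-induced factor and REST a repressor of neuronal genes. *Egr1* was at 97.3 and 247 CPM in pre-SE mice, 2259 and 1035 CPM at SE 6 h and 608 and 1154 CPM at SE 2 days, and at 835 and 169 CPM in SE + LEV 6 h and 337 and 105 CPM in SE + LEV 2 days mice. Both SE groups lay above pre-SE, with logFC of 3.30 at 6 h (SE 0.79, adjusted p = 0.058, limma) and 2.43 at 2 days (SE 0.79, adjusted p = 0.11), neither of which passed. *Mtf1* had a logFC of 0.55 at 6 h (adjusted p = 0.29) and 0.36 at 2 days (adjusted p = 0.49), and *Rest* 0.87 (adjusted p = 0.26) and 1.03 (adjusted p = 0.15).

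The 200 bases before the annotated starts of *Cacna1h* and *Cacna1b* are shown because *Cacna1h* is the member studied with these factors and *Cacna1b* had the widest gap between pre-SE mice. They were read from mm9 at chr17:25570729-25570928 and chr2:24618673-24618872, both on the minus strand, and run 5′ to 3′ towards the gene. Capitals mark matches, on either strand, to the EGR site GCGNGGGCG and to TGACG, which is a shorter form of the cAMP response element (CRE) TGACGTCA and lies within it.
*Cacna1h*: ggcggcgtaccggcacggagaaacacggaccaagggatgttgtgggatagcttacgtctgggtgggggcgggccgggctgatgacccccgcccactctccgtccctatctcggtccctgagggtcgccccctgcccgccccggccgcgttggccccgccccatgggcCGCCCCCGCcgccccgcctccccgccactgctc
*Cacna1b*: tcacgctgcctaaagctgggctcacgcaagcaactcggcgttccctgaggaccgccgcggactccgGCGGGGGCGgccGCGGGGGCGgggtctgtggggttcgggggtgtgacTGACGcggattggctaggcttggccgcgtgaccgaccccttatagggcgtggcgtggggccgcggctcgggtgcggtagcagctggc
*Cacna1h* held 1 EGR match, 33 bases before the start. *Cacna1b* held 2, at 134 and 122 bases before it, and TGACG at 87. Of 13933 promoters of the same length, 8.12% held the EGR letters and 22.6% held TGACG. These shares are not matched for G and C, which made up 75.0% of the *Cacna1h* and 72.5% of the *Cacna1b* window, beside a median of 60.5%. Among the other members, *Cacna2d1* held 2 EGR matches, and *Cacna1a*, *Cacna1i* and *Cacna2d1* held TGACG. The full CRE and the AP-1 site TGANTCA were also searched and are in no member's window. The letters of the metal response element, TGCGCNC (19% of promoters) and TGCACNC (8.76%), were also searched and are not in the *Cacna1h* window. A match describes letters only.

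The α2δ gene *Cacna2d1* (chr5:15440509-15880329, plus strand) was among the 3 members with the highest means in every group. Its levels were 97.98 and 106 CPM in pre-SE mice, 90.2 and 92.2 CPM at SE 6 h, 93.7 and 93.5 CPM at SE + LEV 6 h, 88.3 and 68.3 CPM at SE 2 days and 70.3 and 88.8 CPM at SE + LEV 2 days. All SE mice lay below both pre-SE mice, by small amounts at 6 h (logFC -0.16, SE 0.22) and with a logFC of -0.39 at 2 days (SE 0.22, adjusted p = 0.36, limma). *Cacna2d2* (chr9:107301943-107431677, plus strand) was at 12.97 and 12.1 CPM in pre-SE mice, 11.9 and 7.19 CPM at SE 6 h, and 32.2 and 14.6 CPM at SE 2 days. Both SE 2 days mice were above all SE 6 h and pre-SE mice, and replicate 1 was far above replicate 2. The logFC of SE 2 days was 0.79 against pre-SE (SE 0.41, 95% interval -0.13 to 1.70, adjusted p = 0.33) and 1.22 against SE 6 h (SE 0.41, 95% interval 0.30 to 2.13, adjusted p = 0.14). With LEV *Cacna2d2* was at 12.1 and 11.1 CPM at 6 h and 15.7 and 10.02 CPM at 2 days, which overlapped with SE 2 days (logFC -0.79, 95% interval -1.70 to 0.13, adjusted p = 1).

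At SE 6 h against pre-SE, 3 members were above in both mice, among them *Cacna1c*, beside 18.6% of all genes, and 3 were below, beside 31.3%. The test called 0 members, beside 2.96% of all genes (2.76% higher and 0.202% lower). The median logFC of the members was -0.08, beside -0.13 for all genes. Rescaling the libraries by the median of ratios moved the median of all genes to 0.00 and that of the members to 0.05, with 5 estimates on each side of 0 in both cases.

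At SE 2 days against pre-SE, *Cacna1a*, *Cacna1d*, *Cacna1e*, *Cacna1h*, *Cacna1i* and *Cacna2d1* were below in both mice, that is 6 of 10 beside 25.6% of all genes, and *Cacna1g* and *Cacna2d2* were above, beside 26.3%. The test called 0 members, beside 5.66% of all genes (5.07% higher and 0.593% lower). The median logFC was -0.49 for the members and -0.03 for all genes, and without *Cacna1c* it was -0.51. The summed level of 6 neuron markers, of which 5 were listed and 0 were at 0 in all libraries, was 5119.7 and 4790.4 CPM in pre-SE and 3730.8 and 3014.4 CPM in SE 2 days mice. Of these 5, 3 were below and 0 above in both SE 2 days mice, and *Rbfox3* and *Grin1* overlapped with pre-SE. Astrocyte markers (5 of 5 listed) summed to 2084 and 1926 CPM in pre-SE and 3270.5 and 4738 CPM in SE 2 days mice, of which *Gfap* alone went from 246 and 230.2 CPM to 2282 and 3642 CPM, whereas 2 of the 5, *Slc1a2* and *Gja1*, were below in both SE 2 days mice. Microglia markers (5 of 5 listed) summed to 156 and 148 CPM in pre-SE and 289 and 274 CPM in SE 2 days mice, with 4 above and 1 below in both mice. Oligodendrocyte markers (4 of 4 listed) summed to 4152 and 4745 CPM in pre-SE and 1530.0 and 2307 CPM in SE 2 days mice, with all 4 below in both. The part of these shifts in the levels of the channel genes was not tested.

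Between SE 6 h and SE 2 days mice, 6 members, among them *Cacna1c*, were lower in both SE 2 days mice, beside 20.1% of all genes, and 1, *Cacna2d2*, was higher, beside 31%. The median logFC was -0.53 for the members and 0.09 for all genes, and -0.30 without *Cacna1c*. Again 0 members were called, beside 4.25% of all genes (3.14% higher and 1.11% lower). This comparison uses the same SE mice as those against pre-SE.

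**Figure D3:**
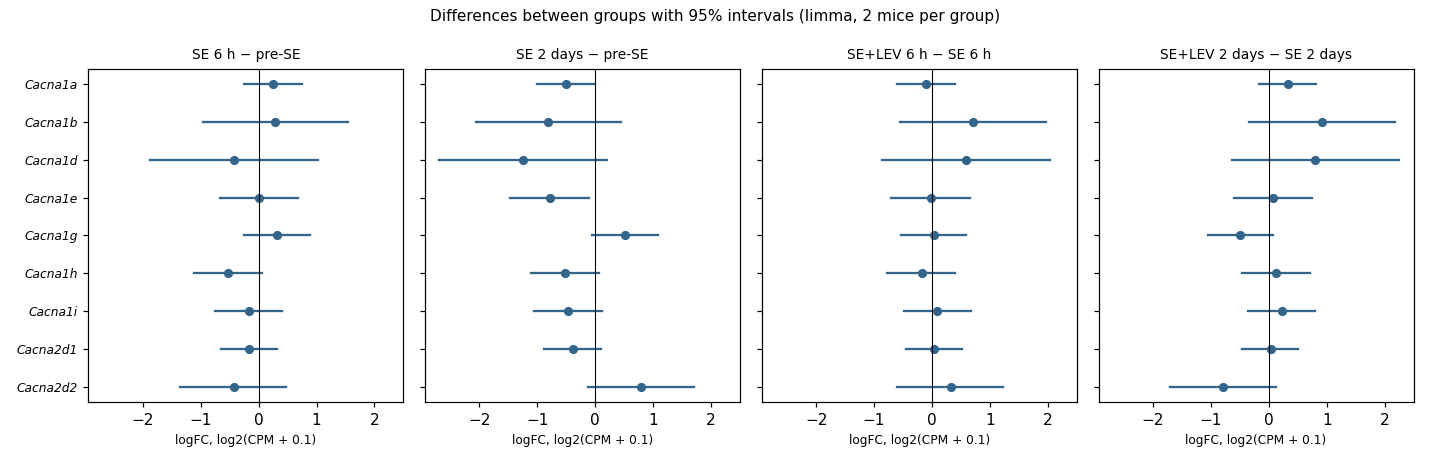
LogFC on the log2(CPM + 0.1) scale (x axis) with 95% intervals from limma for the 9 channel genes above the 3-tag limit (y axis), in 4 comparisons of 2 mice with 2 mice. At SE 2 days against pre-SE, *Cacna1a* and *Cacna1e* have intervals that end below 0, and in both comparisons of SE + LEV with SE each interval includes 0.

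SE + LEV mice were compared with SE mice to see whether LEV changed the levels. At 6 h, 3 members were above in both mice (*Cacna1b*, *Cacna1d* and *Cacna2d1*), beside 16.1% of all genes, and 1, *Cacna1c*, below, beside 13.4%. At 2 days, 2 were above (*Cacna1c* and *Cacna1i*), beside 15.2%, and 1 below (*Cacna1g*), beside 12.2%. There were 0 members called at either time and 0 at an unadjusted p under 0.05, where all genes had 4.58% at 6 h and 2.7% at 2 days. Of all genes, 0% were called higher and 0.0126% lower at 6 h, and 0% in either direction at 2 days. The median logFC of the members was 0.03 at 6 h and 0.17 at 2 days, beside 0.04 for all genes at both times. Over the 9 members other than *Cacna1c*, the 95% intervals of the LEV differences ran from -0.87 at the lowest to 2.03 at the highest at 6 h, and from -1.70 to 2.25 at 2 days. These ends are of *Cacna1d* at 6 h and of *Cacna2d2* and *Cacna1d* at 2 days. Some members had narrower intervals, such as *Cacna1a* with -0.60 to 0.40 at 6 h and -0.17 to 0.82 at 2 days. Each of these intervals includes 0. The test of the LEV difference at 2 days against that at 6 h called 0 members (0% of all genes), and 1, *Cacna1c*, had an unadjusted p under 0.05, beside 2.38% of all genes.

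Against pre-SE, SE + LEV 6 h mice had 3 members above (*Cacna1a*, *Cacna1b* and *Cacna1g*), beside 17% of all genes, and 3 below (*Cacna1h*, *Cacna2d1* and *Cacna2d2*), beside 25.5%. SE + LEV 2 days mice had 1 above (*Cacna1c*), beside 22.6%, and 4 below (*Cacna1e*, *Cacna1h*, *Cacna1i* and *Cacna2d1*), beside 17.5%. At SE + LEV 6 h 0 members were called, beside 0.322% of all genes (0.315% higher and 0.00631% lower), and 1, *Cacna1h*, had an unadjusted p under 0.05, beside 9.38% of all genes. At SE + LEV 2 days 0 were called, beside 2.85% of all genes (2.83% higher and 0.0189% lower), and 1, *Cacna1e*, had an unadjusted p under 0.05, beside 10.8%. The median logFC of the members was 0.07 at 6 h and -0.22 at 2 days, beside -0.08 and 0.02 for all genes.

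The tags of the 8 pore-forming genes together summed to 453 and 338 CPM in pre-SE, 432 and 361 CPM in SE 6 h, and 273 and 259.5 CPM in SE 2 days mice. With LEV the sums were 417 and 418 CPM at 6 h and 263 and 376 CPM at 2 days. Both SE 2 days mice were thus below the pre-SE and SE 6 h mice, and the SE + LEV 2 days mice were on both sides of the lower pre-SE mouse. T-type genes made up 28.1% and 33.7% of these tags in pre-SE, 26.8% and 25.9% in SE 6 h, and 40.3% and 36.3% in SE 2 days mice, where the share was higher than in all pre-SE and SE 6 h mice. The T-type share was 22.1% and 26.6% at SE + LEV 6 h and 40.5% and 25.0% at SE + LEV 2 days, the mouse with 25.0% being the one with high *Cacna1b*. N-type *Cacna1b* took 6.3% to 19.4% over the 10 mice, P/Q-type *Cacna1a* 22.5% to 32.5%, R-type *Cacna1e* 20.5% to 31.2% and the L-type genes 1.4% to 3.8%. The L-type share is nearly all *Cacna1d*, since *Cacna1c* was listed at 0 to 0.14 CPM. As the assignment of tags to both L-type genes is uncertain, so are this share and, with it, those of the other types.

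Within the T-type tags, *Cacna1g* took 18.9% and 17.7% in pre-SE, 26.9% and 26.2% in SE 6 h, and 27.2% and 35.3% in SE 2 days mice. With LEV it took 26.8% and 28.8% at 6 h and 23% and 21.9% at 2 days. The share was lowest in the 2 pre-SE mice, and next in the 2 SE + LEV 2 days mice. *Cacna1h* took 51.3% and 47.5% in pre-SE mice and 35.0% to 47.5% in the other mice, and *Cacna1i* 25.4% to 38.0% over all mice. These shares are given as descriptions, without a test.

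**Figure D4:**
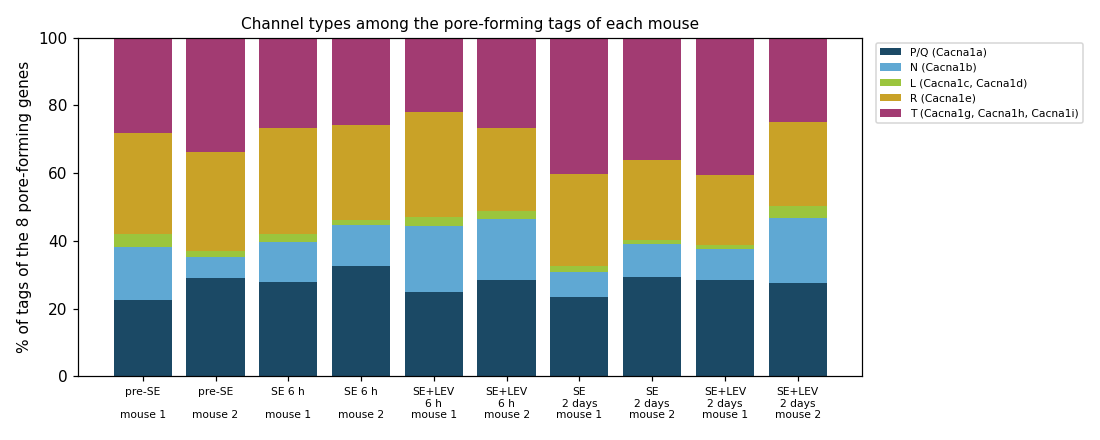
Share of each channel type, in percent of the tags of the 8 pore-forming genes (y axis, 0 to 100), in each of the 10 mice (x axis). T-type genes make up 36.3% to 40.3% in SE 2 days mice and 25.9% to 33.7% in pre-SE and SE 6 h mice, and the 2 SE + LEV 2 days mice differ, with 40.5% and 25.0%. The L-type part is nearly all *Cacna1d*, and its size is uncertain because *Cacna1c* is listed at or near 0.

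Of 16 further genes named as subunits (the remaining α1 and α2δ genes and the β and γ genes), 12 were listed and tested. The γ genes are counted here by their names, whichever channel or receptor they act on. At SE 6 h against pre-SE 0 of the 12 were called, beside 2.96% of all genes. Estimates were lower for 10, beside 60.0% of all genes, with a median logFC of -0.27, beside -0.13. At SE 2 days against pre-SE 1 rose, beside 5.07% of all genes, and 0 fell, beside 0.593%. Again 10 had lower estimates, beside 52.8% of all genes, with a median of -0.37, beside -0.03. The gene that rose was *Cacna1s*, the L-type pore of skeletal muscle, at very low levels: 0.07 and 0.14 CPM in pre-SE, 0.16 and 0 CPM in SE 6 h, 0.23 and 0.28 CPM in SE + LEV 6 h, 0.93 and 0.81 CPM in SE 2 days and 0.55 and 0.45 CPM in SE + LEV 2 days mice. Both SE 2 days mice were above all other mice. Its logFC was 2.26 against pre-SE (SE 0.52, adjusted p = 0.033, limma, or 0.23 without replicate 1 of pre-SE) and 2.59 against SE 6 h (SE 0.52, adjusted p = 0.023, or 0.14 without replicate 2 of SE 6 h). At SE 2 days against SE 6 h it was the 1 called, beside 3.14% of all genes called higher. No further subunit was called in the other 6 comparisons, where the lowest adjusted p was 0.22 (limma). In those 6, 0% to 2.96% of all genes were called. Chosen after its values were seen, *Cacng5*, which is named as a γ subunit and acts on AMPA receptors, was at 10.9 and 11.1 CPM in pre-SE and 25.8 and 20.4 CPM in SE 2 days mice (logFC 1.06, SE 0.35, adjusted p = 0.12, limma).

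Among 15 genes for proteins that act on the channels (RGK GTPases, STAC adaptors, calmodulins, RIM and related proteins), 13 were listed and tested. At SE 6 h against pre-SE 2 of the 13 rose, beside 2.76% of all genes, and 0 fell, beside 0.202%. At SE 2 days against pre-SE the same 2 rose, beside 5.07%, and 0 fell, beside 0.593%. Both encode RGK proteins, small GTPases that bind the β subunit and strongly reduce calcium current. *Gem* was at 2.21 and 2.73 CPM in pre-SE, 37.3 and 46.5 CPM in SE 6 h, 46.6 and 49.1 CPM in SE + LEV 6 h, 10.1 and 27.5 CPM in SE 2 days and 8.76 and 19.0 CPM in SE + LEV 2 days mice. Each of the 8 mice that had SE was higher than the pre-SE pair, while SE and SE + LEV mice overlapped at 2 days. Against pre-SE the logFC was 4.03 at 6 h (SE 0.48, adjusted p = 0.0028, limma) and 2.71 at 2 days (SE 0.48, adjusted p = 0.0088, or 0.082 without replicate 2 of SE 2 days). *Gem* also rose in SE + LEV mice, by a logFC of 4.23 at 6 h (adjusted p = 0.009, or 0.097 without replicate 1 of SE + LEV 6 h) and 2.35 at 2 days (adjusted p = 0.027, or 0.17 without replicate 1 of pre-SE). SE + LEV against SE gave 0.20 at 6 h (95% interval -0.86 to 1.26) and -0.36 at 2 days (95% interval -1.42 to 0.69).

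*Rrad* was at 0.55 and 0.62 CPM in pre-SE, 68.4 and 15.7 CPM in SE 6 h, 4.05 and 5.98 CPM in SE + LEV 6 h, 3.26 and 15.5 CPM in SE 2 days and 2.03 and 2.92 CPM in SE + LEV 2 days mice. At each time both SE + LEV mice were below both SE mice and above both pre-SE mice. Against pre-SE the logFC was 5.59 at SE 6 h (SE 0.76, adjusted p = 0.005, limma) and 3.40 at SE 2 days (SE 0.76, adjusted p = 0.028, or 0.26 without replicate 2 of SE 2 days). SE + LEV against SE gave -2.71 at 6 h (SE 0.76, 95% interval -4.40 to -1.02, adjusted p = 0.63) and -1.51 at 2 days (95% interval -3.20 to 0.18, adjusted p = 1), which did not pass. Of the other RGK genes, *Rem2*, chosen after its values were seen, was at 34.6 and 25.5 CPM in pre-SE, 92.9 and 70.2 CPM in SE 6 h and 89.2 and 94.9 CPM in SE + LEV 6 h mice, with a logFC of 1.44 at SE 6 h (SE 0.37, adjusted p = 0.071). In SE 2 days mice it was at 42.8 and 102 CPM, and in SE + LEV 2 days mice at 37.9 and 43.2 CPM. Between SE 2 days and SE 6 h, 0 of the 13 regulators were called, beside 4.25% of all genes. Against pre-SE 1 regulator, *Gem*, was called higher at SE + LEV 6 h, beside 0.315% of all genes. It was also the 1 called higher at SE + LEV 2 days, beside 2.83%.

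**Figure D5:**
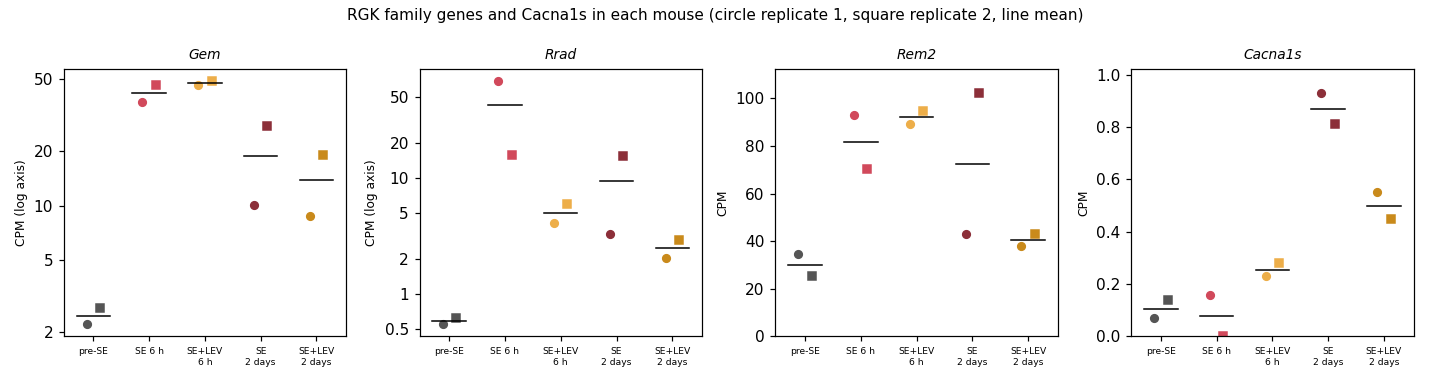
Level in CPM (y axis, on a log scale for *Gem* and *Rrad* and from 0 for *Rem2* and *Cacna1s*) of the RGK genes *Gem*, *Rrad* and *Rem2* and of *Cacna1s* in the 5 groups (x axis), with a circle for replicate 1, a square for replicate 2 and a line for the mean. *Gem* and *Rrad* are higher in every mouse that had SE than in the 2 pre-SE mice, and *Rrad* is lower in SE + LEV than in SE mice of the same time.

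Genes for calcium stores and extrusion (ryanodine and IP3 receptors, calcium pumps and sodium-calcium exchangers) were taken as a further list of 15, of which 14 were listed and tested. There were 0 called in any of the 8 comparisons, where 0% to 5.66% of all genes were called. At SE 2 days against pre-SE 4 of the 14 had an unadjusted p under 0.05, beside 19.8% of all genes. In that comparison 12 of the 14 had a negative logFC, beside 52.8% of all genes, and the median was -0.21, beside -0.03. *Atp2b3*, a plasma membrane calcium pump of neurons, was at 120.02 and 147 CPM in pre-SE and 85.1 and 61.8 CPM in SE 2 days mice (logFC -0.87, SE 0.23, adjusted p = 0.057, limma). *Ryr3*, a calcium release channel of the endoplasmic reticulum, was at 64.9 and 68.4 CPM in SE 6 h and 34.3 and 29.6 CPM in SE 2 days mice (logFC -1.06, SE 0.29, adjusted p = 0.072). *Atp2b4*, another plasma membrane pump, was at 25.8 and 35.9 CPM in pre-SE and 45.0 and 72.1 CPM in SE 2 days mice (logFC 0.90, SE 0.30, adjusted p = 0.13). In each of these pairs the groups did not overlap, and none passed the threshold.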

How the data were processed

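CAGE libraries from whole hippocampi of 10 mice were used, with groups and replicate numbers taken from the sample titles. The authors mapped tags to mm9 with BWA 0.7.17 and unmapped tags with HISAT2 2.0.5, built tag clusters with RECLU, dropped those under 0.1 CPM and deposited CPM values, 1 for each gene and library. BEDtools 2.12.0 and edgeR 3.22.5 are also named in the submitters' processing notes. The step from clusters to genes, and its use of strand, are not given in the sources used here. The deposited values have 2 decimals, and depth was estimated from their spacing. In the deeper libraries the worth of 1 tag is of the same order as the rounding step, so these depths are estimates and no count test was run.

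Log2(CPM + 0.1) was fitted with limma 3.58.1 in R 4.3.3 for all 10 libraries and 5 group means, with a mean-variance trend, for the 15851 of 15900 genes that reached 0.1 CPM in 2 libraries or more. Tests were two-sided, with Benjamini-Hochberg adjustment over these genes and a threshold of 0.05. A logFC on this scale understates the change of low genes. There were 8 comparisons: the 4 groups with SE, each against pre-SE, LEV against no LEV at both times, the later against the earlier SE group, and the change in the LEV difference from 6 h to 2 days.

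The members and gene lists were chosen with earlier results of these data known. All members were named, the called genes of the other lists or otherwise up to 3 per list with the smallest p, the 3 *Cacna1h* promoter factors, and the 5 genes with profiles most like the members with the largest logFC at SE 6 h (*Cacna1c*) and SE 2 days (*Cacna1d*). Positions and sequences were read from mm9 with the GENCODE annotation of that build. Some promoter sequences are not reported here. Alternatives were other pseudocounts (0.01 and 1), no filter or at least 1 CPM, median-of-ratios rescaling, a fit of only the groups compared, the replicate number as a block and each mouse left out. A *Ttr* covariate and a block with crossed numbers were added after the data were seen. Same-numbered mice are different animals. Python 3.11.15 with pandas 2.3.3 and matplotlib 3.10.9 made the tables and plots.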

Additional observations from a re-analysis of the deposited data

Results flagged for a closer look

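*Cacna1s* differed between the times after SE: its level was 0.93 and 0.81 CPM in SE 2 days and 0.16 and 0 CPM in SE 6 h mice, a logFC of 2.59 (SE 0.52, 95% interval 1.43 to 3.74, adjusted p = 0.023 in limma, higher in 2 of 2 mice). Because the pre-SE mice are common to both times, this is the same as the difference between the SE effects at 2 days and 6 h. Under 18 alternatives the adjusted p ran from 0.014 to 0.14, and 14 of them passed the threshold.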

How the results depend on the processing

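Under 19 alternatives for each of 80 values of the members (10 genes in 8 comparisons), 1512 values were obtained and 2 of them passed the threshold. Both were *Cacna1e* in the block with crossed replicate numbers, where 1 member was called lower at SE 2 days against pre-SE and 1 at SE 2 days against SE 6 h. *Cacna1c* gave no value with the filter of at least 1 CPM. The median logFC of the members ran from -0.18 to 0.25 at SE 6 h against pre-SE when 1 mouse was left out, with 0.25 without replicate 1 of pre-SE, and from -0.24 to 0.36 for the LEV difference at 2 days against that at 6 h, with -0.24 without replicate 2 of SE + LEV 2 days. The cause was not tested. With the replicate number as a block 0 members were called. The labels link same-numbered mice by the number alone, and whether they also share a batch is not given. Correlations of deviations between groups ran from -0.44 to 0.34. The block by replicate number changed the number of all genes called at SE 2 days against pre-SE from 803 to 715 higher and from 94 to 89 lower.

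Of all genes, those called lower at SE 2 days against pre-SE numbered 94, but 231 with the *Ttr* covariate and 306 with crossed numbers, and those at SE 2 days against SE 6 h 176, but 285 with crossed numbers and 339 with the *Ttr* covariate. For SE 6 h against pre-SE 32 were called lower, but 58 with crossed numbers. For SE + LEV 6 h against SE 6 h 2 were called lower, and 0 to 11 under other settings. For SE + LEV 6 h against pre-SE 50 were called higher, and 14 to 105 under other settings, and for SE + LEV 2 days against pre-SE 448, but 0 in a fit of only the groups compared, with 3 lower and 0 to 25 under other settings. Leaving out 1 mouse gave 106 to 499 higher and 2 to 37 lower at SE 6 h against pre-SE, 246 to 994 higher and 3 to 190 lower at SE 2 days against pre-SE, 117 to 646 higher and 36 to 274 lower at SE 2 days against SE 6 h, 0 to 86 higher at SE + LEV 6 h against pre-SE and 107 to 619 higher at SE + LEV 2 days against pre-SE. The lowest of these came without replicate 2 of SE 2 days (246, 3 and 117), replicate 2 of SE 6 h (106 and 36), replicate 1 of pre-SE (2), and replicate 1 of SE + LEV 6 h (0) and of SE + LEV 2 days (107). Rescaling moved the median logFC of all genes at SE 6 h against pre-SE from -0.13 to 0.00. The planned count tests were not run. At the estimated depths all values fitted whole tags within rounding, but in some libraries the step of 1 tag was judged too close to that rounding. At the estimated depths of 10540000 to 51710000 tags, *Cacna1c* was at or under 3 tags in every library, and the cause was not tested.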
